A study of Mus musculus with 4 samples.

Results

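The subject is the miR-221 and miR-222 cluster, a pair of neighbouring miRNA hairpins on the mouse X chromosome, in small RNA pulled down with Argonaute2 (AGO2) from the olfactory bulb. The members are the rows mmu-miR-221-5p, mmu-miR-221-3p, mmu-miR-222-5p and mmu-miR-222-3p, both arms of both hairpins and 4 of the 1900 miRNA names in the count table. They were chosen by their higher CPM, counts scaled to library size in the usual unit, in GFP-AGO2 than in Control. Every difference of the members between these groups is therefore given as a description, with no test. The values met that description for the 3p arms, whereas for each 5p arm the libraries of the groups overlapped.

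The GFP-AGO2 group has 2 libraries, replicates 1 and 3, from C57BL/6 mice that received the vector LV.PGK.GFP-AGO2, and the Control group has 2 libraries with the same replicate numbers from sham-injected C57BL/6 mice. In both groups the bulb was taken 8 weeks after injection. GFP is green fluorescent protein, here fused to AGO2, and PGK is the name of a broadly active promoter. The series describes its material as newborn neurons, while the sample labels name bulb tissue. No source used here names the antibody. What the Control pull-down captured is therefore unknown, and each difference is relative to it. Whether the replicates are different mice is not stated in the labels. The libraries held 1858354 to 2809758 miRNA counts in GFP-AGO2 and 673916 to 1006861 in Control.

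A miRNA hairpin is cut into a short duplex, and AGO2 keeps a single strand of it, the guide, which pairs with messenger RNAs mainly through bases 2 to 8, the seed. The other strand, the passenger, is mostly degraded. MiR-221-3p and miR-222-3p are the usual guides of their hairpins. They are known for lowering the cell cycle inhibitor Cdkn1b (p27) and the receptor Kit, and they are abundant in many proliferating cells and in vessel walls.

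The mature sequences show why the 3p arms are treated as a single seed family and the 5p arm is not. They are from RefSeq (GRCm38.p6, the assembly of mm10) with the seed in capitals, and 3 of the 4 members had an entry; mmu-miR-222-5p had none. MiR-1928 is the only other name of the sequence table that shares a seed with any of these members.
mmu-miR-221-3p (chrX:19146307-19146329, minus strand): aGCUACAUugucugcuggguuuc
mmu-miR-222-3p (chrX:19146901-19146923, minus strand): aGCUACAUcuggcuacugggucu
mmu-miR-221-5p (chrX:19146344-19146369, minus strand): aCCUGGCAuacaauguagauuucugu
mmu-miR-1928 (chr1:74206562-74206578, minus strand): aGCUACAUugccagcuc
The 3p arms are identical over the first 8 bases and at 11 of 23 positions when laid side by side without gaps, so a full-length read of either arm can be told from the other. The shorter miR-1928 matches miR-221-3p over its first 10 bases. It was listed at 0 counts in all 4 libraries, which allows up to 3 counts, or 1.07 and 1.61 CPM of the total counts in GFP-AGO2 and 2.98 and 4.45 CPM in Control, for counting error only. Thus among names with a RefSeq sequence every count of this seed came from miR-221-3p and miR-222-3p.

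The hairpins, also from RefSeq, are shown with the 3p arm in capitals to place each guide in its precursor.
Mir221 (chrX:19146294-19146388, minus strand): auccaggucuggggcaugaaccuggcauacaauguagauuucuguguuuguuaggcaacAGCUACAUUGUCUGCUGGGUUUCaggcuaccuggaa
Mir222 (chrX:19146893-19146971, minus strand): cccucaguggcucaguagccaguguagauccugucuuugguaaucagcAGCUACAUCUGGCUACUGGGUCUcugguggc
The hairpins lie 504 bases apart on the same strand. In the GENCODE annotation of this assembly the cluster overlaps no gene other than the hairpins themselves, so it is intergenic. The nearest other annotated gene is the noncoding Gm14636, 10010 bases away, and the nearest protein-coding gene is Tex13c3, 332 kb away. In the count table each member has a single position, and no other miRNA name overlaps the cluster. The row for mmu-miR-222-5p covers chrX:19146940-19146960, and the row for miR-222-3p is 21 bases long, against 23 in RefSeq.

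MiR-222-3p (mmu-miR-222-3p in the table), a guide arm, was the most abundant member in every library. It had 16626 and 11644 counts in GFP-AGO2 replicates 1 and 3, against 2794 and 2066 in Control replicates 1 and 3. Scaled by the trimmed mean of M values (TMM), this was 5595 and 5713 CPM in GFP-AGO2 and 2904 and 3411 CPM in Control. Neither Control library reached the lower GFP-AGO2 library. The group means were 5654 ± 83.5 CPM in GFP-AGO2 and 3157 ± 358 CPM in Control (SD, n = 2 each), a log2 fold change of 0.84 (SE 0.14), or 1.79-fold. By count, miR-222-3p ranked 25th and 30th among the names of the GFP-AGO2 libraries and 43rd and 41st among those of the Control libraries.

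MiR-221-3p, the other guide with this seed, followed at a lower level. It had 3913 and 2805 counts in GFP-AGO2, against 588 and 377 in Control. As scaled values these were 1317 and 1376 CPM in GFP-AGO2 and 611.2 and 622.4 CPM in Control. The groups did not overlap, and the replicates of each group lay close together. The means were 1347 ± 42.1 CPM in GFP-AGO2 and 616.8 ± 7.87 CPM in Control (SD, n = 2 each), a log2 fold change of 1.13 (SE 0.14), or 2.18-fold. Its rank by count was 69th in both GFP-AGO2 libraries, and 99th and 95th in Control replicates 1 and 3.

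MiR-221-5p, the passenger arm of miR-221, showed no such separation. It had 160 and 133 counts in GFP-AGO2 and 94 and 25 in Control. The scaled values were 53.85 and 65.26 CPM in GFP-AGO2 and 97.71 and 41.27 CPM in Control replicates 1 and 3. The Control libraries thus enclosed both GFP-AGO2 libraries. The log2 fold change was -0.25 (SE 0.44). Without Control replicate 1 it was 0.58 and without Control replicate 3 it was -0.76, so its sign rests on which Control library is used.

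MiR-222-5p, the passenger arm of miR-222, was the scarcest member. It had 83 and 46 counts in GFP-AGO2 and 23 and 9 in Control, or 27.93 and 22.57 CPM in GFP-AGO2 and 23.91 and 14.86 CPM in Control. Control replicate 1 lay between the GFP-AGO2 libraries. The log2 fold change was 0.36 (SE 0.42), with 0.82 without Control replicate 1 and 0.05 without Control replicate 3. At these counts the SEs of the 5p arms were larger than those of the 3p arms, and neither a change nor its absence is read from them.

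**Figure D1:**
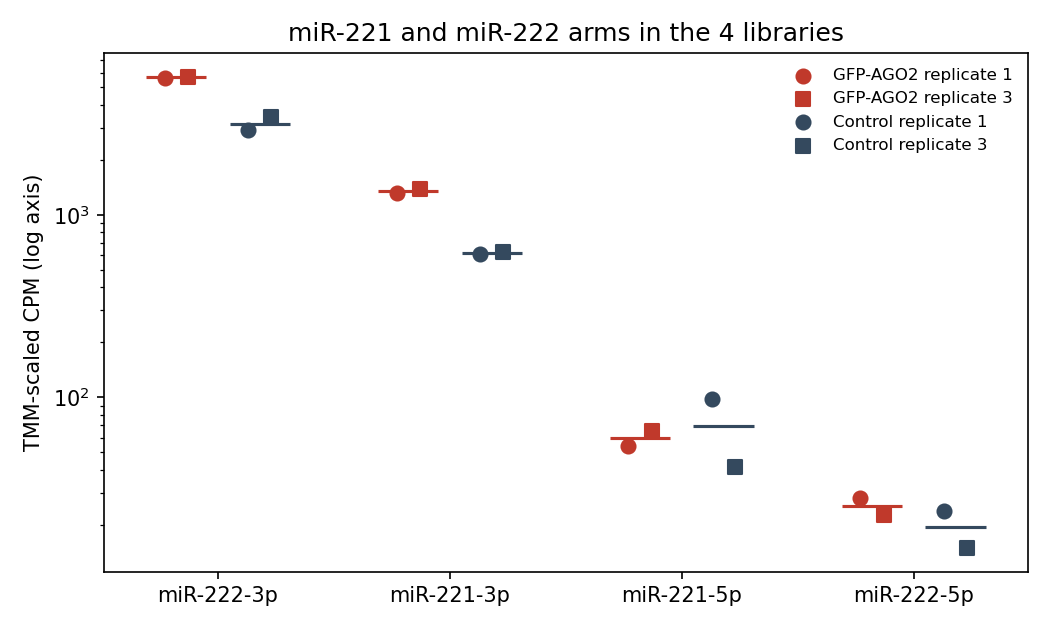
TMM-scaled CPM of each arm on a log axis, with 1 point per library (circles replicate 1, squares replicate 3) and a line at each group mean. The GFP-AGO2 points lie above the Control points for miR-222-3p and miR-221-3p, and the groups overlap for miR-221-5p and miR-222-5p.

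Among the 457 miRNAs with enough counts to test, all 4 members included, edgeR's quasi-likelihood test called 17.3% higher in GFP-AGO2 and 17.1% lower at an adjusted p under 0.05. Both 3p arms were among the higher calls and no 5p arm was called, and nothing is read from that count because the contrast chose the members. The call of miR-222-3p was lost when either Control library was left out. Its log2 fold change was then 0.78 without Control replicate 1 and 0.92 without Control replicate 3. In CPM, the groups did not overlap and GFP-AGO2 was higher for 36.8% of all miRNAs tested. In the order of log2 fold changes, 388 of the 457 lay below miR-221-3p, 352 below miR-222-3p, 292 below miR-222-5p and 188 below miR-221-5p. The 3p arms were therefore in the upper part of the range without being near its top, which was a log2 fold change of 4.08.

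**Figure D2:**
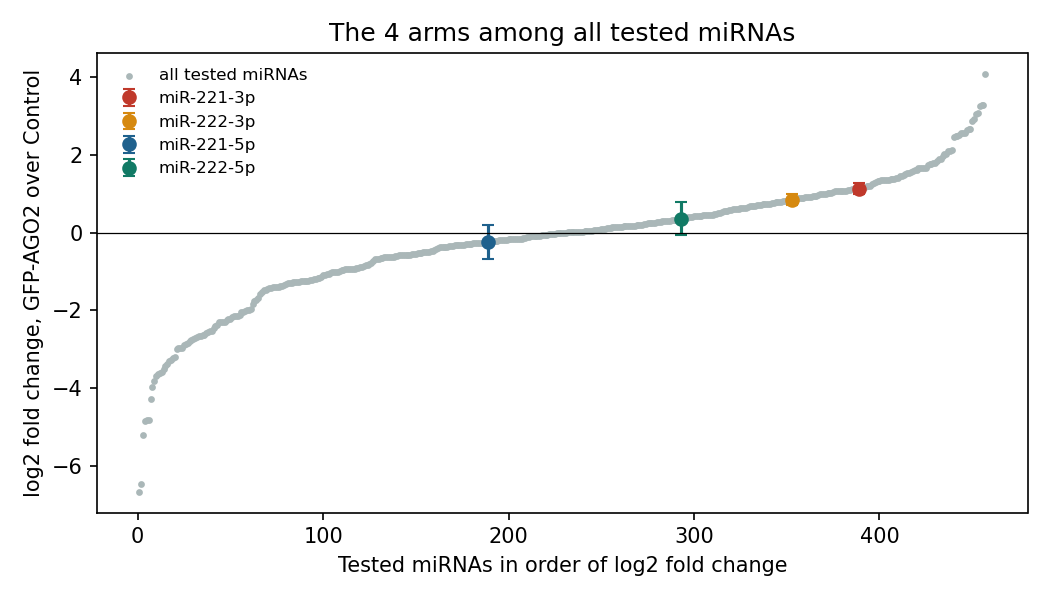
Log2 fold change of GFP-AGO2 over Control for the 457 tested miRNAs in rising order, with the 4 arms in colour and bars of 1 SE. MiR-221-3p (1.13) and miR-222-3p (0.84) lie on the upper slope, while the bar of miR-221-5p crosses 0 and that of miR-222-5p reaches just below it.

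The order of the 4 arms was the same in every library. Per base of their annotated length, miR-222-3p stood at 266 and 272 CPM in GFP-AGO2 and at 138 and 162 CPM in Control. MiR-221-3p stood at 57.3 and 59.8 CPM per base in GFP-AGO2 and at 26.6 and 27.1 in Control. MiR-221-5p followed and miR-222-5p was last. In counts, miR-222-3p had 4.25 and 4.15 times as many as miR-221-3p in GFP-AGO2, and 4.75 and 5.48 times in Control. Per base, these ratios were 4.65 and 4.55 in GFP-AGO2, and 5.2 and 6 in Control. The per-base ratios are larger only because the row for miR-222-3p is 21 bases long, against 23 for miR-221-3p. The 5p arms were in the reverse order of their guides, with miR-221-5p 1.56 and 2.34 times miR-222-5p per base in GFP-AGO2, and 3.3 and 2.24 times in Control.

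As a share of the counts of both 3p arms, miR-221-3p took 19.05% (95% exact binomial interval 18.52 to 19.6) and 19.41% (18.77 to 20.07) in GFP-AGO2 replicates 1 and 3. In Control it took 17.39% (16.12 to 18.71) of replicate 1 and 15.43% (14.02 to 16.93) of replicate 3. Its share was thus larger in both GFP-AGO2 libraries, by 2.82 percentage points on average, although the intervals of GFP-AGO2 replicate 1 and Control replicate 1 met. The intervals cover counting error only, since PCR copies are counted as separate reads.

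The guide arm dominated both hairpins. Of the miR-221 counts, the 3p arm held 96.07% (95.43 to 96.65) and 95.47% (94.66 to 96.2) in GFP-AGO2 replicates 1 and 3. It held 86.22% (83.4 to 88.72) in Control replicate 1 and 93.78% (90.96 to 95.94) in Control replicate 3. Both GFP-AGO2 values were higher than both Control values, but the Control libraries lay further apart from each other than Control replicate 3 did from GFP-AGO2. The mean difference was 5.77 percentage points, and 1.99 without Control replicate 1 or 9.56 without Control replicate 3.

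Of the miR-222 counts, the 3p arm held 99.5% (99.38 to 99.6) and 99.61% (99.48 to 99.71) in GFP-AGO2 and 99.18% (98.78 to 99.48) and 99.57% (99.18 to 99.8) in Control. These values overlapped between the groups. In the 3p to 5p ratio, miR-222 had 200 and 253 guide counts per passenger count in GFP-AGO2 and 121 and 230 in Control. MiR-221 had 24.5 and 21.1 in GFP-AGO2 and 6.26 and 15.1 in Control.

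**Figure D3:**
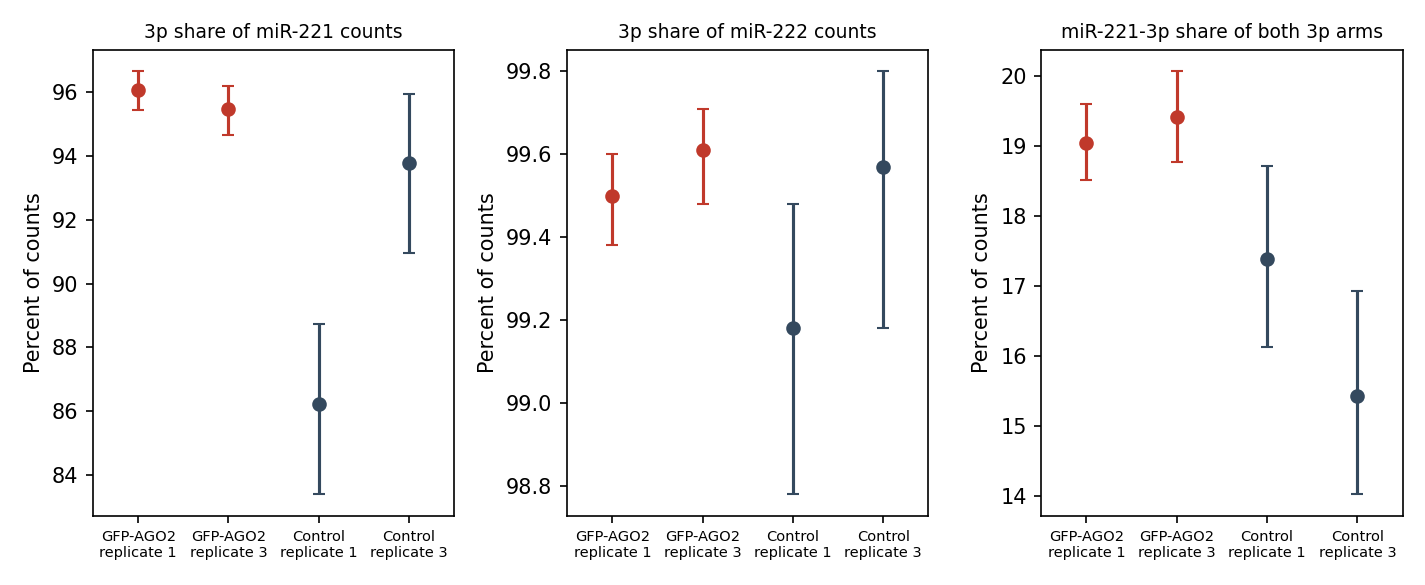
Percent of counts in each library, with 95% exact binomial intervals: the 3p arm among all miR-221 counts, the 3p arm among all miR-222 counts, and miR-221-3p among both 3p arms. The vertical axes do not start at 0 and differ in range; Control replicate 1 (86.22%) is the lowest value of miR-221, and the miR-222 values all exceed 99%.

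The arm ratio was set beside that of the 109 hairpins with both arms tested. The mean log2 ratio of 3p to 5p CPM for miR-221 was 4.49 in GFP-AGO2 and 3.27 in Control, a difference of 1.23. For miR-222 it was 7.79 in GFP-AGO2 and 7.35 in Control, a difference of 0.44. Over all hairpins the median difference was 0.05, with the middle part of the distribution from -0.72 to 0.8 (quartiles). The difference was larger in 20 hairpins than for miR-221 and in 37 than for miR-222. A shift like that of either hairpin was thus not rare in these libraries.

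**Figure D4:**
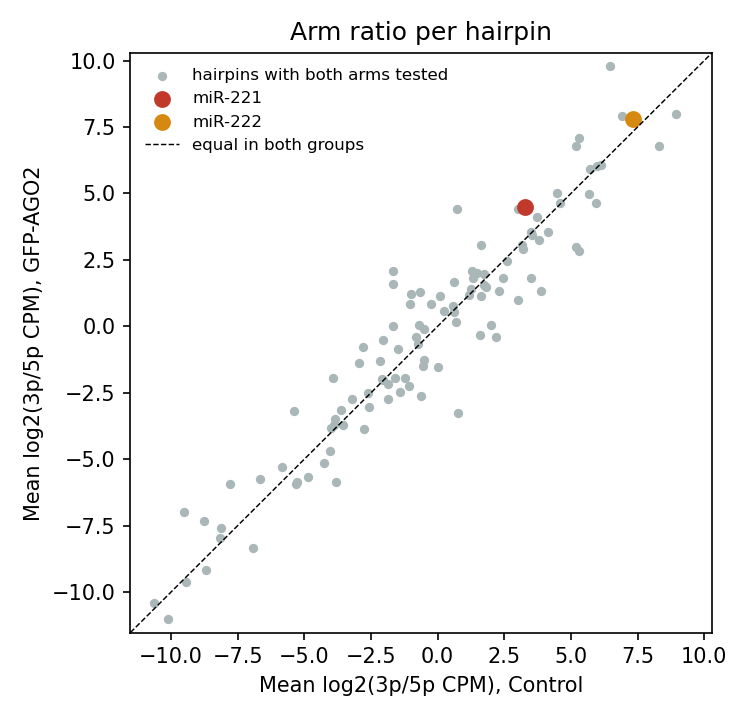
Mean log2 ratio of 3p to 5p CPM per hairpin, GFP-AGO2 on the vertical axis and Control on the horizontal axis, with the dashed line marking equal ratios. Each grey point is 1 of 109 hairpins; miR-221 and miR-222 lie in the upper right, above the line by 1.23 and 0.44.

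Together the 4 members made up 0.74% and 0.787% of all miRNA counts in GFP-AGO2 replicates 1 and 3, and 0.348% and 0.368% in Control. This was 2.14 times as much in GFP-AGO2. Another set of names moved strongly in the same libraries and so bears on any share. It holds the 8 listed epithelial and sensory miRNAs, 5 of the miR-200 family and 3 of the miR-183 cluster. They made up 2.56% and 5% of the counts in GFP-AGO2 and 23.4% and 23% in Control. All 8 were called lower, against 17.1% of all miRNAs tested. With these 8 left out of the denominator, an alternative added with the data in view, the cluster held 0.759% and 0.829% in GFP-AGO2 and 0.454% and 0.477% in Control, or 1.71 times as much. In a pull-down from tissue, fewer cells of a type, less RNA per cell and a different capture by the pull-down cannot be told apart.

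MiR-221 and miR-222 are also made by vessel and blood cells, so the markers of these cells were read in the same libraries. The 12 names of the vessel, blood and immune list held 0.0354% and 0.167% of the counts in GFP-AGO2 and 0.488% and 0.357% in Control. MiR-451a, with 1 and 8 counts in GFP-AGO2 and 20 and 18 in Control, passed the count filter only through Control. Nothing is read from its direction. Of the 4 tested names none was called higher, and miR-146a-5p and miR-150-5p were called lower. MiR-451a was also called lower, a call that is not read. Shares of all miRNAs tested were 17.3% higher and 17.1% lower. The median log2 fold change of the 4 names, with miR-451a among them, was -2.34, against -0.01 over all tested miRNAs. Without either Control library 1 of them, miR-150-5p, was still called. The most abundant, miR-143-3p of smooth muscle, averaged 795.9 ± 749 CPM in GFP-AGO2 and 3894 ± 769 CPM in Control (SD, n = 2 each; log2 fold change -2.29, edgeR adjusted p = 0.0637). The immune-regulated miR-146a-5p averaged 115.7 ± 82.7 CPM in GFP-AGO2 and 517.4 ± 54.7 CPM in Control, with edgeR adjusted p = 0.0281. Both arms of miR-126a, the endothelial marker, miR-142-3p of blood cells and miR-486-5p of red blood cells were listed at 0. All 4 of these names overlap another name, and the counting command as given has no option for reads that overlap several, so their zeros are not read as absence. The other arm of miR-142, mmu-miR-142-5p, had 0 and 2 counts in GFP-AGO2 and 11 and 3 in Control, too few to be tested. With miR-451a set aside, the tested names of this list, miR-143-3p, miR-146a-5p and miR-150-5p, lay lower in GFP-AGO2. The part of such cells in the members' values was not tested.

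The 10 neuron-enriched names were all tested, with 2 called higher (miR-9-5p and miR-9-3p), 1 called lower (miR-138-5p) and a median log2 fold change of 0.16. Shares of all miRNAs tested were 17.3% higher and 17.1% lower, with a median of -0.01. None of the 10 was called without Control replicate 1. They held 2.01% and 1.82% of the counts in GFP-AGO2 and 1.34% and 1.56% in Control. MiR-124-3p, the most abundant of them, averaged 5793 ± 730 CPM in GFP-AGO2 and 6449 ± 1170 CPM in Control (SD, n = 2 each). MiR-9-3p, a miRNA of neural progenitors and neurons, averaged 4193 ± 206 CPM in GFP-AGO2 and 2003 ± 692 CPM in Control (log2 fold change 1.07, edgeR adjusted p = 0.0281). It was not called without Control replicate 1. Both names have 3 positions, so their origin is uncertain. When names of several positions were left out, 4 of the 10 were tested and 0 were called. The 3 oligodendrocyte-enriched names overlap other names and were listed at 0.

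Because miR-221 and miR-222 are linked to proliferation, other miRNAs with that link were read as a list. Of 11 names known for promoting proliferation (the main members of the miR-17~92 and miR-106b~25 clusters, miR-21a-5p and miR-155-5p) all 11 were tested, 3 were called higher and none lower, and the median log2 fold change was 0.33. That is 3 of 11 against the 17.3% called higher among all tested miRNAs. The called names were miR-106b-5p (1.34, SE 0.33, edgeR adjusted p = 0.0304), miR-20a-5p (1.00, SE 0.19, edgeR adjusted p = 0.0138) and miR-93-5p (0.79, SE 0.16, edgeR adjusted p = 0.0167). With total counts alone 5 were called higher. MiR-106b-5p, miR-20a-5p and miR-93-5p lost their calls when either Control library was left out. MiR-106b-5p was also not called without GFP-AGO2 replicate 1, without GFP-AGO2 replicate 3 or with DESeq2's own test. With the replicate number as a block it was not called either (edgeR adjusted p = 0.0704). The most abundant of the list, miR-21a-5p, averaged 2520 ± 194 CPM in GFP-AGO2 and 2402 ± 116 CPM in Control, with a log2 fold change of 0.07. MiR-92a-3p, with 2 positions, averaged 2105 ± 118 CPM in GFP-AGO2 and 1706 ± 80.2 CPM in Control (0.30, edgeR adjusted p = 0.142).

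Of 8 names known for restraining proliferation (the miR-15, miR-16, miR-195 and miR-497 group and miR-34), 6 were tested, none was called higher and 1 lower (17.1% of all miRNAs tested were lower), with a median log2 fold change of -0.77. The called name was miR-497-5p, at 46.27 ± 1.18 CPM in GFP-AGO2 and 86.46 ± 6.13 CPM in Control (-0.90, SE 0.24, edgeR adjusted p = 0.0396). It was not called with DESeq2's own test, with total counts alone or with no filter. Nor was it called with the replicate number as a block (edgeR adjusted p = 0.0868), or when any single library was left out. MiR-16-5p, the most abundant, had 546.9 ± 5.23 CPM in GFP-AGO2 and 719.2 ± 77.8 CPM in Control (-0.39, edgeR adjusted p = 0.104), and miR-195a-5p had 118.2 ± 4.72 CPM in GFP-AGO2 and 99.08 ± 9.29 CPM in Control.

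On the X chromosome the cluster stands apart from other miRNA names. The nearest on either side are miR-5617-3p, 1716 kb away, with 9 and 11 counts in GFP-AGO2 and 0 in both Control libraries, and miR-1198-3p, 11339 kb away, with 11 and 3 counts in GFP-AGO2 and 0 and 5 in Control. Of the 157 other names with a position on this chromosome 32 were tested, 10 were called higher and 3 lower, against 17.3% and 17.1% of all miRNAs tested. Their median log2 fold change was 0.44, against -0.01 over all. The most abundant of them with a single position, miR-676-3p, averaged 2400 ± 70.4 CPM in GFP-AGO2 and 1557 ± 6.75 CPM in Control (0.62, SE 0.13, edgeR adjusted p = 0.0167). It was not called without either Control library. Let-7f-5p and miR-92a-3p were the other abundant names, and both have a second position on another chromosome; let-7f-5p averaged 46660 ± 7810 CPM in GFP-AGO2 and 40730 ± 5250 CPM in Control (0.20, edgeR adjusted p = 0.417).

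The miRNAs whose profile over the 4 libraries was most like that of miR-221-3p were found by the root mean square difference of log2 CPM, each centred on its own mean. Among 456 others the closest were miR-300-3p (0.054), miR-30e-5p (0.061), miR-186-5p (0.076), miR-20a-5p (0.091) and miR-361-5p (0.093). MiR-30e-5p, for example, had 6902 and 6852 CPM in GFP-AGO2 and 3333 and 3462 CPM in Control. The paralog miR-222-3p came 23rd (0.16), and the partner arm miR-221-5p 253rd (0.76). With 4 libraries this likeness mostly restates the size of the group difference and the spread between replicates.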

How the data were processed

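Small RNA after AGO2 immunoprecipitation was sequenced from 2 GFP-AGO2 and 2 Control libraries. The deposited values are whole-number counts per mature miRNA name; per the file headers the authors made them with featureCounts v1.4.6-p1 from primary alignments over a miRBase annotation of mm10, with no strand option. Tools named in the submitters' processing notes are cutadapt and STAR, with no version. Columns were matched to samples by title.

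Counts were fitted with edgeR 4.0.16 (R 4.3.3; quasi-likelihood F test, TMM factors, filterByExpr with a minimum count of 10), two-sided, with Benjamini-Hochberg adjustment over 457 tested names, which held 99.88% to 99.93% of each library's counts. P-values rest on the spread between libraries, part or all of which may be technical. Fold changes are GFP-AGO2 over Control. DESeq2 1.42.0 was an alternative. For the profile comparison log2 CPM used a prior count of 2, and arm ratios had 0.5 CPM added to each arm. Shares have exact Clopper-Pearson 95% intervals.

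The members and lists were chosen with earlier results of these data known. Named besides the members were names sharing a seed, the nearest and the 3 most abundant names of the X chromosome, the 5 profiles most like miR-221-3p, and the 2 most abundant tested names of each list. The called names of the proliferation lists were added after their values were seen. Older names of miR-142, miR-486 and miR-497 in the table were matched by hand. Of the epithelial and sensory list, all 8 tested names were lower, and its 2 most abundant, miR-183-5p and miR-200a-3p, had log2 fold changes of -2.97 and -2.76.

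Replicates of a group were not copies of a library (chi-square 47711 on 475 degrees of freedom in GFP-AGO2 and 4563.7 on 383 in Control).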

Additional observations from a re-analysis of the deposited data

How the results depend on the processing

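MiR-221-3p, miR-222-3p and miR-222-5p were higher in GFP-AGO2, and miR-221-5p lower, under every alternative that gave a value, except that miR-221-5p was higher without Control replicate 1. The log2 fold changes of miR-221-3p and miR-222-3p were 1.343 and 1.06 with total counts alone, a scaling that put the median of all miRNAs at 0.202, and 1.367 and 1.084 with no filter. MiR-221-3p had 1.036 with a minimum count of 50, where miR-222-5p was not tested. With DESeq2 size factors, DESeq2's own test, single-position names, or without the epithelial and sensory names, every member moved by less than the spread between replicates. Leaving out each library in turn gave 1.094 to 1.167 for miR-221-3p, 0.7833 to 0.9224 for miR-222-3p, -0.7572 to 0.5777 for miR-221-5p and 0.0478 to 0.824 for miR-222-5p. The calls over all miRNAs, 79 higher and 78 lower, then ranged from 47 to 94 and from 43 to 106; the low counts were 47 and 43 without Control replicate 1 and 49 and 53 without replicate 3 of that group, fits that kept 88 and 94 of the 157 calls. A fit that leaves a group with 1 library takes its spread from the other group. Total counts alone gave 100 higher and 66 lower calls. The 3p share of miR-222 differed by -0.01138 to 0.3714 percentage points, the low end without Control replicate 1.

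With the replicate number as a block 79 were called higher and 85 lower, and the log2 fold changes of the members were 1.126 for miR-221-3p, 0.8452 for miR-222-3p, -0.1457 for miR-221-5p and 0.3959 for miR-222-5p. The replicate 1 minus replicate 3 differences of the groups correlated at -0.0606 across miRNAs, so the numbers are not shown to pair the libraries. Counts of 9 to 160 limit the 5p arms.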
